A study of Mus musculus with 7 samples.

Results

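The replication-dependent histone genes encode the core histones H2A, H2B, H3 and H4 and the linker histone H1. They were chosen by name: a gene name of the deposited table was taken where it has the form Hist1 to Hist4 followed by the letter h, a class and a letter, such as Hist1h4c. Of the 50226 gene names with a value, 69 met this rule, at 94 loci of the table. These are 6 H1, 20 H2A, 18 H2B, 12 H3 and 13 H4 genes. The Hist1 cluster on chromosome 13 holds 56 of them, Hist2 on chromosome 3 holds 10, Hist3 on chromosome 11 holds 2, and Hist4 on chromosome 6 holds 1.

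RNA-Seq of rRNA-depleted total RNA was made from 7 tissues of wild-type C57BL/6 mice (C57BL/6N in the study's text) on NCD, a diet the labels do not spell out, at 36 weeks of age. The tissues were the fat depots SCAT (subcutaneous adipose tissue), VAT (visceral adipose tissue) and BAT (interscapular brown adipose tissue), and liver, kidney, skeletal muscle and cortex. Each tissue had 1 library, and the number of mice behind it is not given in the sources used here. No difference between tissues has a replicate check and no p-value was computed. Values are FPKM, fragments scaled for transcript length and library size, and the number of fragments behind each value is unknown.

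Replication-dependent histone genes supply the histones that package newly made DNA, and their mRNAs accumulate in S phase and are degraded when DNA synthesis stops. These mRNAs are the main class of animal mRNA without a poly(A) tail. They end instead just after a short stem-loop that is bound by SLBP, and a few of the genes can also give a polyadenylated mRNA in cells that do not divide. Selection of poly(A) RNA loses most of these transcripts, while depletion of rRNA keeps them. The replication-independent variants H3.3 and H2A.Z come from genes with introns and have mRNAs with poly(A) tails, and they are made in resting cells as well.

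The stem-loop is shown first because it is the feature that sets these transcripts apart in an rRNA-depleted library. Its letters were searched for as GG, 2 free bases, CTTTT, 1 free base, AG, 2 free bases and CC in the GENCODE M21 transcripts of GRCm38, on the transcript strand only and downstream of the stop codon. Of the 67 members with an annotated coding transcript, 50 had at least 16 annotated bases after the stop codon, and 44 of these 50 held the letters. The match began 21 to 58 bases after the stop codon, with a median of 31. Within the first 100 bases it was found in 25 of the 28 members annotated that far. The same window held it in 3 of 40175 coding transcripts of other genes (0.00747%). Capitals mark the bases that pair in the stem, and lower case marks the loop, for 5 of the genes described here:
Hist1h1e (chr13:23621782-23621797, minus strand): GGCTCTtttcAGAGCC
Hist1h3c (chr13:23745047-23745062, minus strand): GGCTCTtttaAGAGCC
Hist1h4c (chr13:23698089-23698104, minus strand): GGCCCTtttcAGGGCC
Hist1h4i (chr13:22040966-22040981, minus strand): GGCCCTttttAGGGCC
Hist1h4j (chr13:21735437-21735452, plus strand): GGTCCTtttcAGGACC
The form of Hist1h1e was shared by 26 members of the classes H1, H2A, H2B and H3. All 11 H4 matches had 1 of the last 3 stems, and none of the 33 matches in the other classes did. Among the genes with at least 1 FPKM in any tissue, 20 of the 23 that are annotated far enough held the letters. The 3 without them in their annotated transcript were Hist1h1a, Hist1h2bc and Hist2h2be, which were chosen after their values were seen.

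At least 1 FPKM in any tissue was reached by 27 of the 69 histone genes, while 29 lay above 0 and below 1 FPKM and 13 were listed at 0 in every tissue. Of all 50226 names, 19122 reached 1 FPKM. By class, the level was reached by 5 of 6 H1, 1 of 20 H2A, 10 of 18 H2B, 5 of 12 H3 and 6 of 13 H4 genes. Of the 13 genes listed at 0, 9 were H2A and 4 were H2B genes. The 27 genes spanned highest values from 2.16 FPKM for Hist1h3d to 148.6 FPKM for Hist1h4c, and 17 of them reached 10 FPKM. Their highest tissue exceeded their lowest by 2.97-fold to 264.7-fold, with a median of 8.80-fold.

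**Figure D1:**
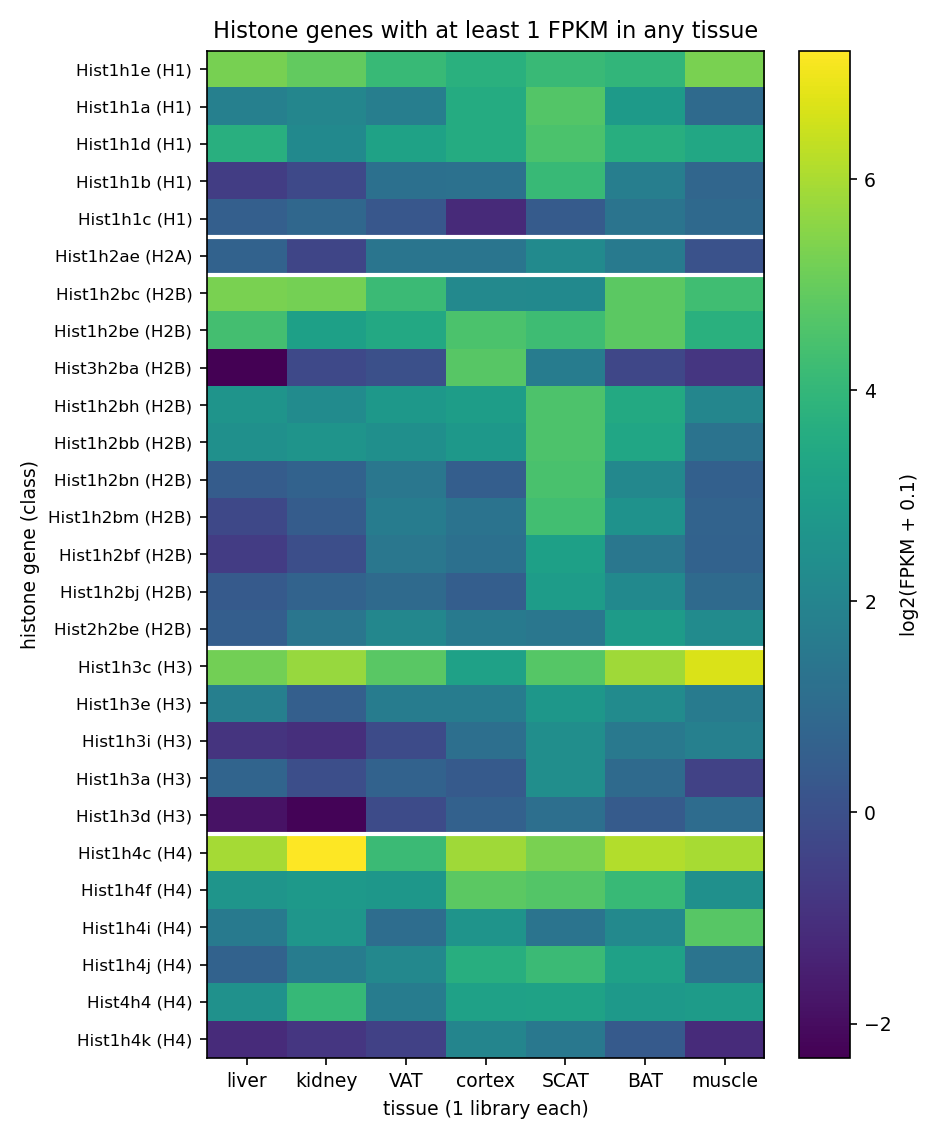
Level of the 27 histone genes with at least 1 FPKM in any tissue (rows, grouped by class with white lines between classes) in 7 tissues (columns, 1 library each), as log2(FPKM + 0.1) on the colour scale. Hist1h4c in kidney (148.6 FPKM) and Hist1h3c in muscle (102.1 FPKM) are the brightest cells, and many rows from H1, H2B and H3 are brightest in SCAT.

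Most of the histone genes with a measurable level were highest in SCAT. Of the 27, 15 had their highest value in SCAT (55.6%), against 9.92% of all 19122 genes with at least 1 FPKM in any tissue. These 15 were 3 H1, 1 H2A, 6 H2B, 4 H3 and 1 H4 gene, with 2.16 to 25.5 FPKM in SCAT. BAT was the next tissue for 9 of them. The log2 difference of SCAT to the next tissue ran from 0.12 to 2.34 with a median of 1.08, and 8 of the 15 were at least 2-fold above it. The other 12 genes were highest in cortex (3, against 20.7% of all genes), BAT (3, 14.1%), muscle (3, 23.3%), kidney (2, 10.4%) and liver (1, 16.3%). VAT, the other white depot, was the highest tissue of 0 of the 27 genes, against 5.32% of all genes.

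Against the mean of the other 6 tissues, the median log2 difference of the 27 genes was 1.48 in SCAT, where the median of all genes was -0.53. In SCAT 18 of the 27 were at least 2-fold above that mean (66.7%), against 11.4% of all genes. BAT followed with a median of 0.64 for the histone genes and 0.04 for all genes. The median was 0.07 in cortex, -0.32 in VAT and -0.35 in muscle. In liver the median was -0.81, and 11 of the 27 were at least 2-fold below the mean of the others, against 23.6% of all genes. In kidney it was -0.80, with 9 of the 27 at least 2-fold lower against 16.8% of all genes. In muscle 10 were 2-fold lower, against 21.0%.

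**Figure D2:**
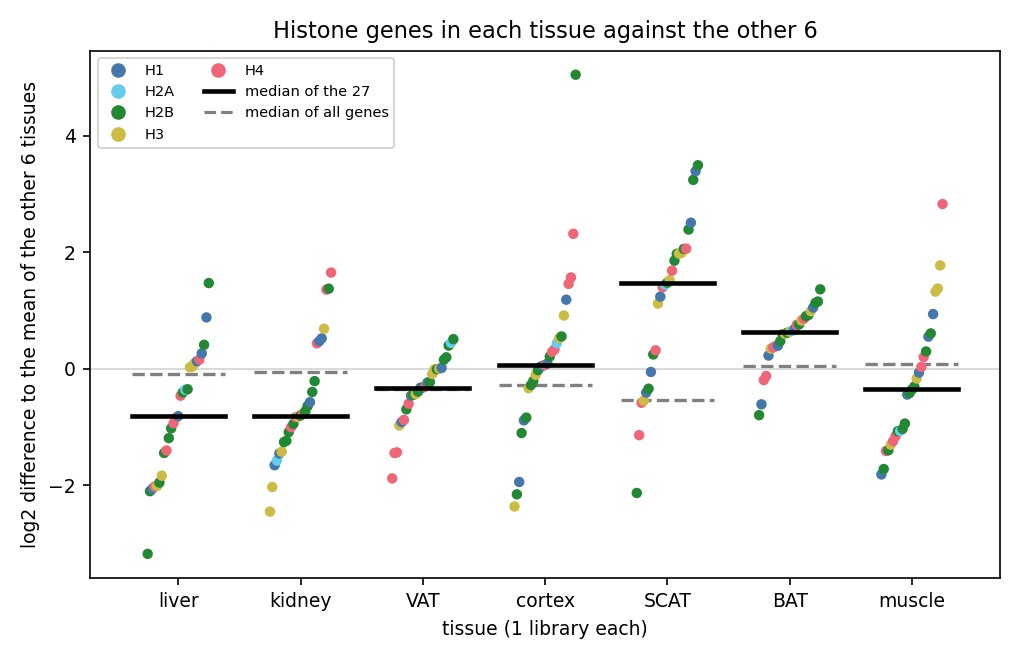
Each point is 1 of the 27 histone genes, coloured by class, and the vertical axis gives its log2(FPKM + 0.1) in a tissue minus the mean of the other 6 tissues. Black bars mark the medians of the histone genes, from -0.81 in liver to 1.48 in SCAT, and dashed grey bars the medians of all genes. In SCAT 20 of the 27 points lie above 0, and in liver 9.

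A gene that reached 1 FPKM only in its highest tissue had to differ between tissues, so the counts over the 27 are descriptions to be read beside those of all genes under the same filter. Of the 17 histone genes with at least 1 FPKM in every tissue, 8 were highest in SCAT, against 5.82% of the 8881 genes that met this filter. Their median log2 difference in SCAT was 1.12, against -0.56 for those genes. This filter was chosen after the data were seen. Scaling the libraries to equal median ratios over these 8881 genes would raise SCAT by 0.49 and VAT by 0.42 and lower muscle by 0.38 on the log2 scale. Under that scaling the SCAT median of the histone genes was 1.96.

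Other genes moved with the SCAT library. Of 8 lymphocyte markers, 7 were highest in SCAT and at least 4-fold above every other tissue, led by Ms4a1 (50.6 FPKM), Cd79b (40.7 FPKM) and Cd79a (35.6 FPKM), which mark B cells. Ltb, the last of the 8, shares its locus with Bag6, and the genes cannot be told apart there. The summed level of the other 7 was 167.7 FPKM in SCAT and between 0.33 FPKM in cortex and 5.78 FPKM in VAT elsewhere. All 4 pancreatic acinar markers were also highest in SCAT, at 14.5 to 35.9 FPKM, against at most 1.41 FPKM elsewhere. The 3 adipocyte markers had 26.6 to 109.6 FPKM in SCAT, and none was highest there. Adipoq and Lep were highest in VAT (330.2 and 51.6 FPKM) and Plin1 in BAT (413.3 FPKM). Of 4 macrophage markers, Lyz2 (79.0 FPKM) and Csf1r (15.3 FPKM) were highest in SCAT, Adgre1 in VAT and Cd68 in muscle, with a median log2 difference in SCAT of 1.04. The part of lymphocytes, acinar cells or macrophages in the SCAT levels of the histone genes was not tested. In bulk tissue, fewer cells of a type and less RNA per cell cannot be told apart.

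The other labels were checked in the same way. All 3 kidney tubule markers were highest in kidney, all 4 markers of neurons and glia in cortex and all 3 brown adipocyte markers in BAT. Ttr and Apoa1 were highest in liver, where the table gives no usable value for Alb. Ckm was highest in muscle (8592 FPKM), where the locus shared by Myh4 and Myh8 has no usable value. In BAT, Ckm had 166.0 FPKM and the locus of Myh4 and Myh8 87.5 FPKM, and Alb had 252.7 FPKM in VAT. The part of muscle in the BAT levels of the histone genes was not tested. All 4 epididymis markers were highest in VAT, with Lcn5 at 1119 FPKM.

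Linker histones H1 bind the DNA that enters and leaves the nucleosome. Hist1h1e, a somatic H1 gene, had the highest level of the class, with 17.6 FPKM in SCAT, 17.1 in VAT, 15.6 in BAT, 38.0 in liver, 30.6 in kidney, 39.3 in muscle and 13.2 in cortex. Its range was the narrowest of the 27 genes, at 2.97-fold from cortex to muscle. Its locus in the table is 41009 bp long (chr13:23581547-23622555, GRCm38) and also spans Hist1h2be and Hist1h4d.

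Hist1h1b, which encodes the H1.5 subtype, was enriched in SCAT, meaning at least 4-fold above every other tissue. It had 17.0 FPKM in SCAT, 2.196 in VAT, 3.30 in BAT, 0.57 in liver, 0.75 in kidney, 1.65 in muscle and 2.25 in cortex. The log2 difference of SCAT to BAT, the next tissue, was 2.33. Hist1h1a, which encodes H1.1, had 25.5 FPKM in SCAT, 3.25 in VAT, 7.20 in BAT, 3.46 in liver, 4.005 in kidney, 1.86 in muscle and 11.6 in cortex. Cortex was its second tissue, 1.13 below SCAT on the log2 scale.

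Hist1h1d, which encodes H1.3, had 22.9 FPKM in SCAT and between 4.55 FPKM in kidney and 12.8 FPKM in liver elsewhere. Hist1h1t, the testis-specific H1 gene, stayed at or below 0.58 FPKM in these 7 tissues, none of which is testis. Hist1h1c, which encodes H1.2, was listed at 0.33 to 2.47 FPKM, with cortex lowest and BAT highest. A second locus with the same bounds carries the name Hist1h3c and is described with the H3 genes.

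H2A genes had little signal under their own names. The single H2A gene to reach 1 FPKM was Hist1h2ae, at a locus that it shares with the H2B gene Hist1h2bf (chr13:23570662-23574196). This shared locus had 4.63 FPKM in SCAT, 2.51 in VAT, 2.85 in BAT, 1.52 in liver, 0.69 in kidney, 0.96 in muscle and 2.499 in cortex, and the H2A and H2B parts of it cannot be told apart. A further locus of the same bounds named Hist1h2bf alone reached 8.38 FPKM in SCAT.

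The next H2A gene by level was Hist3h2a, with at most 0.97 FPKM at a locus of 23366 bp that it shares with Trim17, a gene outside the histone family. Hist2h2ac had at most 0.40 FPKM. Hist2h2aa1 and the H3 gene Hist2h3c1 share a locus with at most 0.11 FPKM. Hist1h2aa and the H2B gene Hist1h2ba, which are both expressed in the male germ line, were listed at 0 in every tissue. Hist1h2aj and Hist1h2al, annotated as pseudogenes, were also at 0.

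H2B genes were the class with the most members above 1 FPKM, and 6 of these 10 were highest in SCAT. Hist1h2bn, enriched there, had 22.2 FPKM in SCAT, 2.68 in VAT, 4.29 in BAT, 1.28 in liver, 1.49 in kidney, 1.41 in muscle and 1.35 in cortex. SCAT was 2.34 above BAT on the log2 scale, the widest gap among the 15 genes highest in SCAT. Its locus of 1469 bp also spans the H2A gene Hist1h2ak. Hist1h2bm had a like pattern, with 19.8 FPKM in SCAT, 5.64 in BAT and 0.73 to 3.07 elsewhere, and was named after its values were seen.

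Hist3h2ba, an H2B gene of the Hist3 cluster, was enriched in cortex. It had 3.07 FPKM in SCAT, 0.91 in VAT, 0.72 in BAT, 0.10 in liver, 0.75 in kidney, 0.47 in muscle and 26.4 in cortex. Cortex was 3.06 above SCAT on the log2 scale and 5.05 above the mean of the other 6 tissues. The Hist3 cluster made up 10.5% of the summed FPKM of all histone genes in cortex, against 0.25% to 1.10% in the other tissues.

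Besides Hist3h2ba, 3 of the H2B genes above 1 FPKM were not highest in SCAT. Hist1h2bc had 4.49 FPKM in SCAT, 18.2 in VAT, 28.1 in BAT, 38.9 in liver, 36.8 in kidney, 19.3 in muscle and 4.43 in cortex, so SCAT and cortex were its lowest tissues. Its log2 difference in SCAT was -2.13, the lowest of the 27 genes. Hist1h2be, at the other strand of the 41009 bp locus of Hist1h1e, had 18.7 FPKM in SCAT, 10.7 in VAT, 27.7 in BAT, 20.7 in liver, 8.44 in kidney, 13.1 in muscle and 22.6 in cortex. Hist2h2be was also highest in BAT, with 7.52 FPKM there and 2.66 FPKM in SCAT, and its log2 difference in SCAT was -0.34. A second locus named Hist1h2be, with the bounds of the first on the other strand, was lower and was highest in SCAT. It had 9.62 FPKM in SCAT, 8.69 in VAT, 8.55 in BAT, 2.44 in liver, 2.65 in kidney, 5.56 in muscle and 3.62 in cortex. Hist1h2bc is the only histone gene with 3 loci in the table, all with the same bounds (chr13:23684032-23694897). Each of its loci was at least 4-fold lower in SCAT than in liver except 1, which had 11.3 FPKM in liver and 3.88 in SCAT.

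H3 carries many of the histone tail modifications. Under the name Hist1h3c stood the highest H3 value, with 25.6 FPKM in SCAT, 27.4 in VAT, 58.2 in BAT, 36.1 in liver, 53.4 in kidney, 102.1 in muscle and 8.64 in cortex. This locus of 6761 bp (chr13:23738751-23745511) spans all of the H1 gene Hist1h1c and 85.6% of Hist1h3c, and which of them gave the fragments cannot be told. A second locus named Hist1h3c, with the same bounds on the other strand, had 21.1 FPKM in SCAT, 3.16 in VAT, 6.12 in BAT, 0.98 in liver, 1.78 in kidney, 0.78 in muscle and 0.74 in cortex. The first of these loci was highest in muscle and the second in SCAT.

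The other H3 genes were low. Hist1h3e had 6.53 FPKM in SCAT, 3.13 in VAT, 4.77 in BAT, 3.38 in liver, 1.36 in kidney, 2.99 in muscle and 3.11 in cortex. Hist1h3i had 5.15 FPKM in SCAT, 0.81 in VAT, 2.82 in BAT, 0.44 in liver, 0.39 in kidney, 3.46 in muscle and 2.11 in cortex. Both were highest in SCAT, as were Hist1h3a and Hist1h3d.

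H4 is among the most conserved of proteins. Of its 6 genes above 1 FPKM, Hist1h4j alone was highest in SCAT, with 17.9 FPKM, while Hist1h4f, Hist1h4j and Hist1h4k were over 2-fold above the mean of the other tissues there, with log2 differences of 1.40, 2.06 and 1.69. Hist1h4c had the highest level of all 69 genes, with 39.3 FPKM in SCAT, 18.1 in VAT, 69.1 in BAT, 61.1 in liver, 148.6 in kidney, 62.6 in muscle and 57.8 in cortex. Kidney was 1.10 above BAT on the log2 scale, and VAT was the lowest tissue. Hist4h4 was also highest in kidney (16.6 FPKM) and lowest in VAT (3.08 FPKM).

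Hist1h4i was enriched in muscle, with 2.46 FPKM in SCAT, 2.03 in VAT, 4.38 in BAT, 2.95 in liver, 6.42 in kidney, 26.9 in muscle and 6.03 in cortex. Muscle was 2.05 above kidney on the log2 scale, just past the limit of 2 for enrichment. With a pseudocount of 1 this difference was 1.91, and under median ratio scaling 1.57, so the gene no longer met the rule under either. Hist1h4f had 25.2 FPKM in SCAT, 6.44 in VAT, 17.1 in BAT, 6.22 in liver, 6.85 in kidney, 5.44 in muscle and 27.9 in cortex. Its values in cortex and SCAT lay 0.14 apart on the log2 scale.

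Few of these genes were enriched in a single tissue. The 4 genes that met the rule, Hist1h1b and Hist1h2bn in SCAT, Hist3h2ba in cortex and Hist1h4i in muscle, were 14.8% of the 27, against 23.0% of all genes. By tissue, the share of all genes that met it was 2.67% in SCAT, 8.32% in cortex and 3.63% in muscle. Their promoters are printed because these 4 genes stood furthest above their next tissue. Each run holds the 120 bases before the RefSeq start (GRCm38.p6), with the letters of CCAAT and TATAAA in capitals on either strand, which gives ATTGG and TTTATA on the other:
Hist1h1b (chr13:21780626-21780745, minus strand): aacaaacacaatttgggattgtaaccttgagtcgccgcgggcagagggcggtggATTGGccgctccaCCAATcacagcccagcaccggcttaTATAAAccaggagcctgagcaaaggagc
Hist1h2bn (chr13:21753956-21754075, plus strand): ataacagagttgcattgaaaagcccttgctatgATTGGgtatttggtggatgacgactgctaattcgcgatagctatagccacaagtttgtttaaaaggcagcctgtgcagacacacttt
Hist3h2ba (chr11:58948791-58948910, plus strand): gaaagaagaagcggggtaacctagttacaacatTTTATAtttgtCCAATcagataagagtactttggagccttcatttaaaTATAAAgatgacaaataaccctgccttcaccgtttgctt
Hist1h4i (chr13:22041363-22041482, minus strand): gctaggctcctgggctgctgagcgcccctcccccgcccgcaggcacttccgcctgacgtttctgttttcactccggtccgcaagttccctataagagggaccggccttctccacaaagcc
The run of Hist1h4i holds neither motif, and in its wider window TATAAA was found and CCAAT was not. The windows searched run from 250 bases before to 50 after the start, and the 2 motifs can share at most 1 base. CCAAT was found in 52 of the 61 members with a window (85.2%) and in 37.4% of all 32851 windows. TATAAA was found in 34 (55.7%) and in 13.6% of all windows. All 49 matched genes of the classes H1, H2A, H2B and H3 held CCAAT, while 3 of 12 H4 genes did. CCAAT stood in 12 of the 13 matched genes highest in SCAT, in 6 of the 10 highest elsewhere and in 34 of the 38 below 1 FPKM. In each of these groups the genes without it were all H4 genes, so the shares follow the number of H4 genes. A match describes letters and is not a measured binding site.

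The summed FPKM over the 68 distinct loci was 366.4 in SCAT, 162.2 in VAT, 324.9 in BAT, 255.9 in liver, 346.6 in kidney, 324.5 in muscle and 255.5 in cortex. SCAT and kidney lay close together as deposited, and apart under median ratio scaling, with 513.8 in SCAT and 336.1 in kidney. Much of the sums came from loci over 5 kb. With loci of at most 5 kb the sum was 263.8 in SCAT, 75.9 in VAT, 173.9 in BAT, 109.0 in liver, 207.7 in kidney, 140.8 in muscle and 189.4 in cortex, which then lay above BAT, liver and muscle. In kidney Hist1h4c alone made up 42.9% of the sum, and the top 3 genes made up 68.9%. In SCAT the top 3 genes, Hist1h4c, Hist1h3c and Hist1h1a, made up 24.7%. Hist1h4c led in liver, kidney, cortex, SCAT and BAT, and the locus named Hist1h3c led in VAT and muscle.

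By class, H4 made up 52.7% of the sum in kidney and 46.1% in cortex, and 21.6% to 33.4% elsewhere. H3 ranged from 6.61% in cortex to 34.3% in muscle, where the locus shared with Hist1h1c gave 31.4% of the total. H2B ranged from 15.5% in muscle to 36.5% in SCAT, and H1 from 12.0% in kidney to 23.0% in SCAT. The locus shared with Hist1h1c was counted with H3. Counted with H1, which had 17.1% in muscle without it, this locus would put muscle and not SCAT highest for H1. H2A stayed between 0.47% and 2.31%, or between 0.062% and 0.44% without loci that carry several names, which leaves out the locus shared with Hist1h2bf. A nucleosome holds H2A and H2B in equal numbers. Without loci over 5 kb, H3 made up 0.68% in kidney and 4.31% in muscle, and H4 made up 87.5% and 74.6%. H2B then ranged from 6.95% in kidney to 33.0% in SCAT, with 9.79% in liver, and H1 from 4.51% in kidney to 24.9% in SCAT.

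**Figure D3:**
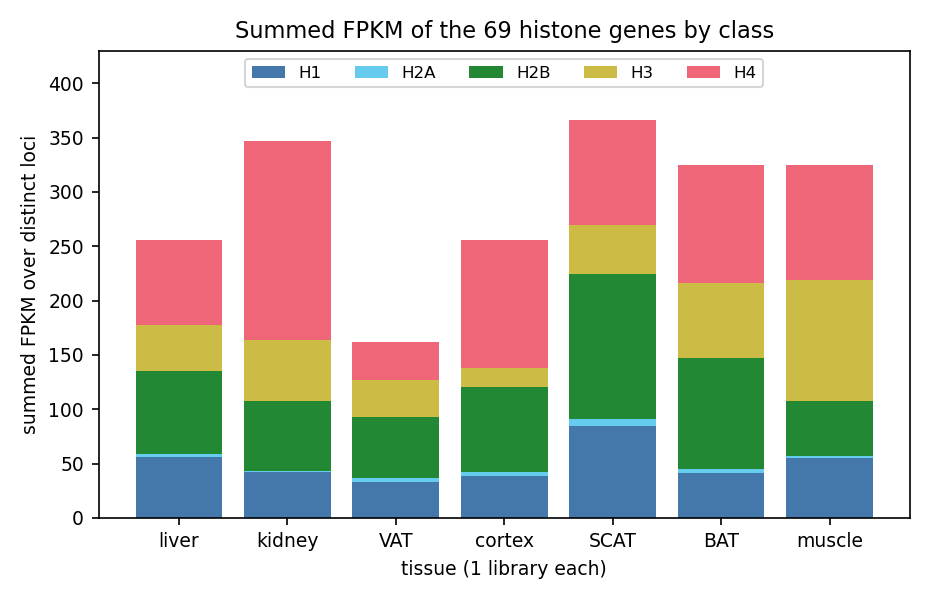
Summed FPKM over distinct loci of the 69 histone genes in each tissue (1 library each), stacked by histone class. The bars run from 162.2 in VAT to 366.4 in SCAT, H4 is the largest part in kidney (52.7%), cortex (46.1%), BAT (33.4%) and liver (30.7%), and the H2A part is at most 2.31% of any bar.

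For 22 of the 69 histone genes, the value came from a locus read as the strand opposite to their annotation although a locus on the annotated one was also listed, and 44 had no locus under their name on the opposite strand. The table gives no strand, but lists the loci of each chromosome in 2 ascending series, which were read as the plus and the minus strand. Of 25 histone genes with a locus under their name on both series, 22 had the higher value on the series opposite to their annotated strand. For these 22 the median of the highest FPKM was 17.4 on the opposite series and 0.10 on the annotated one. The 3 exceptions were Hist1h2bc, Hist1h2be and Hist1h3c, all at loci over 5 kb.

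This was also seen outside the histone family. Of the 24 histone genes of this kind with at least 1 FPKM, 21 (87.5%) were higher on the opposite series, beside 137 of 140 other protein-coding genes with a single exon (97.9%). Of protein-coding genes with several exons, 2880 of 7578 were (38.0%). The annotation gives 64 of the 69 histone genes 1 exon in every transcript. The library kit is directional, the strand setting of the counting is not given in the sources used here, and the cause was not tested.

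**Figure D4:**
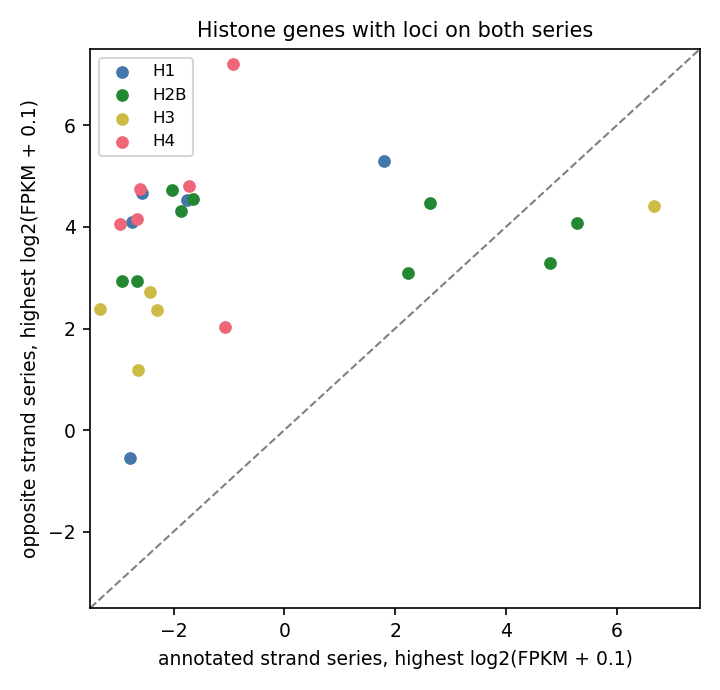
Highest log2(FPKM + 0.1) over the 7 tissues at the locus on the annotated strand series (horizontal axis) and on the opposite series (vertical axis), for the 25 histone genes with loci on both, coloured by class. The dashed line marks equal values: 22 points lie above it and 3 below.

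Of the 42 histone genes below 1 FPKM, 41 had no locus under their name on the opposite series, against 3 of the 27 above it. For 24 of the 42, a locus under a name outside the family lay over the gene on that series, and for 11 of these it had at least 1 FPKM. At the place of the H2A gene Hist2h2ac, a locus named Gm44492 (chr3:96220361-96220880) had 7.45 FPKM in SCAT, 5.77 in VAT, 15.2 in BAT, 17.1 in liver, 19.9 in kidney, 9.14 in muscle and 6.28 in cortex. At Hist1h2an, another H2A gene, Gm44346 had 4.95 FPKM in SCAT and at most 0.64 FPKM elsewhere. At the H4 gene Hist1h4b, 4930558J22Rik had 6.17 FPKM in kidney and 0.50 FPKM in muscle. These genes were named after their values were seen.

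Where each histone gene was instead given the highest locus of at most 5 kb on the opposite series, under any name, 24 genes reached 1 FPKM and 15 of these were highest in SCAT. These 15 stand at 14 distinct loci, since Hist1h2ae and Hist1h2bf were given the same one, and 4 of the 15 were given a locus that does not carry their own name. This alternative was chosen after the data were seen. Of the 27 genes under their own names, 21 had their value from the opposite series, and 13 of these 21 were highest in SCAT. Of the 6 with their value from the annotated series, 2 were. The locus of 8 of the 27 also spans another histone gene, and among the 19 whose locus spans none, 11 were highest in SCAT. For these subsets and for the choice of any name, the share of all genes highest in SCAT was not counted.

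Near-identical sequence also limits these values, since fragments that fit several genes may be split or dropped. Among genes of the commonest coding length in a class, the median identity between coding sequences was 96.4% for H2A, 97.2% for H2B, 97.2% for H3 and 93.9% for H4. Windows of 101 bases, taken as the read length, were compared between the histone genes. Those that also occur in another histone gene made up a median of 64.4% of an H2A transcript, 39.5% for H3, 31.7% for H2B, 18.8% for H4 and 0.38% for H1. The median share was 17.9% in the genes with at least 1 FPKM and 54.4% in the others. Hist1h1a, Hist1h1b and Hist3h2ba had no such window. Of Hist1h2bn, 51.2% of the windows were shared. How the counting treated such reads is not given in the sources used here.

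S phase and cell division genes were also more often highest in SCAT than in any other tissue. Of those on the list, 18 of the 24 in the table reached 1 FPKM, 9 of these were highest in SCAT and 7 were at least 2-fold above the mean of the others there, where 9.92% and 11.4% of all genes were. Their median log2 difference was 0.56 in SCAT (-0.53 for all genes), 0.45 in BAT and -0.77 in cortex. Top2a, the topoisomerase of dividing cells, had 5.20 FPKM in SCAT, 0.89 in VAT, 1.25 in BAT, 0.31 in liver, 0.53 in kidney, 0.31 in muscle and 0.22 in cortex. Mki67, a proliferation marker, had 3.58 FPKM in SCAT and between 0.27 and 1.28 FPKM elsewhere.

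Other genes of this list were highest elsewhere. Tk1, a thymidine kinase, reached 25.99 FPKM in muscle. The locus that carries the names of Mcm6, a subunit of the replicative helicase, and Dars reached 57.5 FPKM in muscle, and the genes cannot be told apart there. Pcna, the sliding clamp of DNA polymerase, had between 10.1 FPKM in liver and 16.6 FPKM in BAT. Tyms, the thymidylate synthase, was highest in kidney at 13.3 FPKM.

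**Figure D5:**
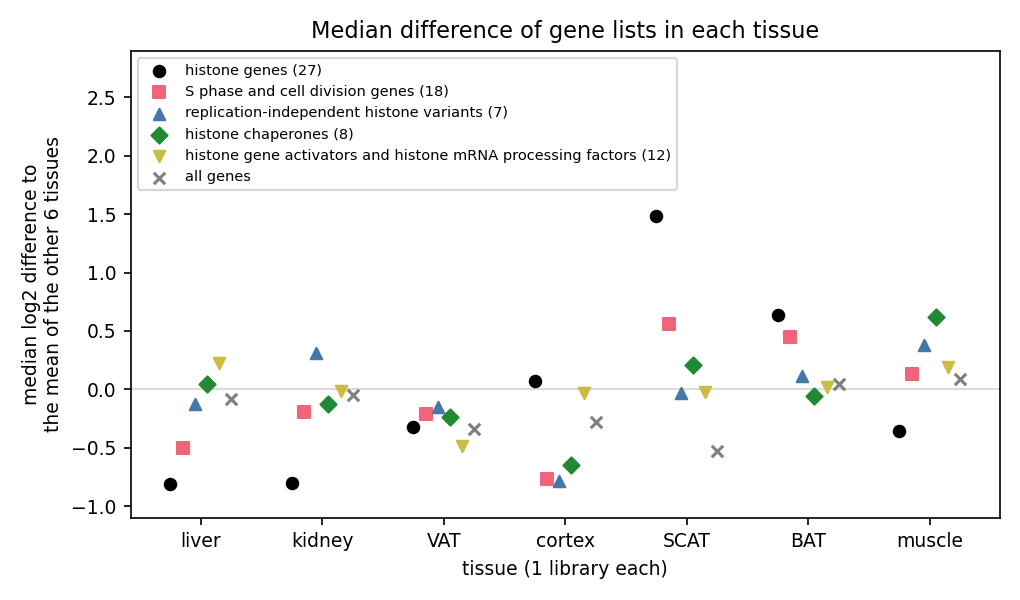
Median log2 difference of each tissue to the mean of the other 6, for the 27 histone genes, 4 lists of related genes (number of genes with at least 1 FPKM in brackets) and all genes. The histone genes lie highest in SCAT (1.48), where the S phase and cell division genes lie at 0.56, the histone variants at -0.03 and all genes at -0.53.

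Of 11 replication-independent variants, 7 reached 1 FPKM, and 1 of these, Cenpa of the centromere (4.02 FPKM), was highest in SCAT. H3f3a, which encodes H3.3, had 93.5 FPKM in SCAT, 79.7 in VAT, 107.9 in BAT, 72.8 in liver, 104.5 in kidney, 108.8 in muscle and 47.8 in cortex. H2afz, which encodes H2A.Z, had 21.4 to 43.2 FPKM, H2afv 7.48 to 21.2 FPKM, and H2afy2, a macroH2A gene, 21.5 FPKM in BAT and at most 6.21 FPKM elsewhere. The median log2 difference of the 7 was -0.03 in SCAT, where that of all genes was -0.53 and 9.92% of all genes were highest. The 4 variants below 1 FPKM were H1f0, H1fx, H2afj and H2afx. The values of all 11 variants stood on the annotated series. Among other single-exon protein-coding genes with loci on both series and at least 1 FPKM, 137 of 140 were lower on that series. Whether this bears on the 4 low variants was not tested.

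Among 13 histone gene activators and histone mRNA processing factors in the table, 12 reached 1 FPKM and 1 was highest in SCAT (9.92% of all genes), with a median log2 difference there of -0.03 (-0.53 for all genes). Slbp, which encodes the stem-loop binding protein, had 10.01 FPKM in SCAT, 6.34 in VAT, 13.8 in BAT, 6.25 in liver, 8.65 in kidney, 3.41 in muscle and 8.89 in cortex. Npat, a coactivator of histone genes, had 20.8 FPKM in BAT and 2.87 FPKM in SCAT, its lowest value. The locus shared by Sympk, a scaffold of the 3' end processing complex, and Rsph6a was highest in muscle (30.9 FPKM) and Cstf2, a cleavage factor, in cortex (15.3 FPKM).

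Of 8 histone chaperones, all reached 1 FPKM and 1 was highest in SCAT (9.92% of all genes), with a median log2 difference there of 0.21 (-0.53 for all genes). Atrx, a chromatin remodeller that deposits H3.3, had 30.1 to 64.5 FPKM, Asf1a 6.19 to 16.3 and Nasp, which binds H1, 4.15 to 7.99 FPKM. The locus of Hira, which also carries 2 other gene names, had 4.23 to 9.61 FPKM.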

How the data were processed

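The authors trimmed reads with flexbar, removed rRNA reads with Bowtie2 2.2.9, aligned to GRCm38 with STAR 2.6.0c, and assembled and compared transcripts with Cufflinks 2.2.1. The deposited table gives FPKM per locus in 21 comparisons of the 7 tissues. Its fold changes, test statistics, p-values, q-values and significance calls were not used. Loci with status FAIL were dropped, LOWDATA zeros were taken as missing, and the locus with the highest FPKM stood for a name. Loci carrying several names counted for each name. FPKM were compared as log2(FPKM + 0.1), which understates differences of low values. Enriched means at least 1 FPKM and 4-fold above every other tissue. Depth is unknown, so no intervals were computed.

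The histone genes and lists were chosen with earlier results of these data known. Named by rule are the 3 highest genes of each class, enriched genes, the highest gene of each tissue, the germline genes Hist1h1t, Hist1h2aa and Hist1h2ba, genes sharing a locus, and, of other lists, the 4 highest and Slbp, Mki67 and Top2a. Other genes were named after their values were seen. Strand, exons and transcripts come from GENCODE M21, promoters from RefSeq (61 of 69 matched by symbol or synonym). The enrichment rule was tested on simulated data. Alternatives covered pseudocount, filters, scaling, choice of locus and libraries left out. Python 3.11.15, pandas 2.3.3, NumPy 2.4.6 and matplotlib 3.10.9 were used.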

Additional observations from a re-analysis of the deposited data

How the results depend on the processing

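No paired analysis was possible because there was 1 library for each tissue. SCAT had the highest median log2 difference, 0.80 to 1.98, under the alternatives run that include its library, except without a filter on low values. With a minimum of 0.1 FPKM it was 0.80 over 40 genes, and without a filter 0.050 over all 69, below BAT at 0.23 (13 genes are at 0 throughout). Without a filter the liver median was -0.047 and the kidney median -0.16. The number highest in SCAT ran from 4 to 22: it was 8 of 17 with at least 1 FPKM in every tissue, and 4 of 9 on the annotated strand series, where 9 genes reached 1 FPKM. These 2 alternatives were added after seeing the data. Enriched genes numbered 11 at 2-fold and 2 without the SCAT library. Hist1h4i was not enriched with a pseudocount of 1 (3 genes were) or under median ratio scaling, where Hist1h2bm was. The other 146 of 155 comparisons of these counts and medians moved by at most 1.5-fold (0.58 on the log2 scale for a median). Part of them could not move. No histone gene was dropped for FAIL or had a LOWDATA zero at the locus used, so keeping either changed nothing. Of the medians, 1 changed sign: VAT, from -0.32 to 0.11 under median ratio scaling. Without the SCAT library, 12 of the 27 genes were highest in BAT. Among these alternatives, the share of all genes was counted only for 1 FPKM in every tissue, where 5.82% were highest in SCAT. The other counts have no such background. Depth is unknown, so low values cannot be given an error.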
